A study of Mus musculus with 4 samples.

Results

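The primary cilium genes described here are 44 genes named in a list of intraflagellar transport proteins and their motors, the BBSome, the transition zone and the proteins that carry receptors and lipids in and out of the cilium. Their amplicons were found by symbol among the 23930 amplicons of the deposited table, and all 44 had one. The mutant cells were labelled Gnas-/-: subcutaneous progenitor cells of C57BL/6 mice that carry floxed Gnas, infected with Ad-Cre (an adenovirus that delivers Cre recombinase). The control cells, labelled wild type, were the same kind of floxed cell infected with Ad-GFP. Both groups, of 2 libraries each, were then held for 7 days in medium that promotes bone formation, and they are called mutant 1, mutant 2, control 1 and control 2 below. Gnas encodes the G protein subunit that stimulates adenylyl cyclase. The virus differs between the groups as the genotype does, so the effects of Ad-Cre and of Gnas loss cannot be told apart in these libraries.

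The primary cilium is a single antenna built on a centriole at the surface of most mesenchymal cells. Intraflagellar transport trains move cargo along it: IFT-B trains travel outward on kinesin-2, IFT-A trains return on dynein-2, and the BBSome loads membrane receptors for export. At its base the transition zone acts as a gate. Vertebrate Hedgehog signalling needs the cilium, because Ptch1, Smo and the Gli factors pass through it, and protein kinase A, which cyclic AMP activates, holds Gli proteins in their repressor form near its base. The ciliary receptor Gpr161 couples to the product of Gnas and keeps cyclic AMP high in the absence of Hedgehog ligand.

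The libraries held 17460018 reads in mutant 1, 14847959 in mutant 2, 18455811 in control 1 and 13483518 in control 2. The 2 mutant libraries lay close to each other, with 11 of 11638 tested genes over 4-fold apart, against 507 between the 2 control libraries. Xist, an RNA made from an inactive X, stood at 395 and 419 RPM (reads per 1000000 reads of a library) in the mutants, against 165 and 0 RPM in the controls. Ddx3y, on the Y chromosome, stood at 26.9 and 12.5 RPM in the mutants and at 61.4 and 124 RPM in the controls. Both mutants and control 1 thus held reads of both genes, and control 2 of Ddx3y alone. The 8 macrophage markers summed to 30.0 and 16.4 RPM in the mutants and to 49.0 and 965 RPM in the controls, and the defining marker Adgre1 was at 0 outside control 2. The 14 cilium disassembly and cell cycle genes summed to 328 and 390 RPM in the mutants and to 228 and 545 RPM in the controls. The pericyte markers summed to 218 and 293 RPM in the mutants, against 30.6 and 65.5 RPM in the controls. Cspg4 and Mcam made up nearly all of that sum, while Abcc9, at 0 and 0.067 RPM in the mutants against 6.23 and 0.890 RPM in the controls, and Kcnj8, at 0.115 and 0.067 RPM in the mutants against 0.867 and 0.593 RPM in the controls, were lower in both mutants. The Schwann cell markers summed to 14.8 and 16.1 RPM in the mutants, against 1.95 and 3.49 RPM in the controls. The part of sex, of these cell types, of the stromal markers and of cycling in the values below was not tested. Each of the 4 stromal markers was present in every library and higher in both mutants than in both controls, and they summed to 21429 and 24817 RPM in the mutants, against 7517 and 12085 RPM in the controls. Among them, Dpt passed the test described below, with 666 and 430 RPM in the mutants, against 19.0 and 58.1 RPM in the controls (adjusted p = 0.0389). Col1a1, Thy1 and Pdgfra did not, with ratios of means of 2.48, 1.76 and 1.23. Gnas itself was not analysed here, so the genotype was not checked by its target.

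Messages of the primary cilium were present in mutant and control cells alike, and none of the tested members changed at the threshold. Of the 44 members, 42 had at least 1 RPM in at least 2 libraries and were tested, 40 of them with that level in every library. At an adjusted p of 0.05 (limma on log2(RPM + 1), adjusted over all 11638 tested genes) 0 members were called, against 2.30% of all tested genes (1.73% higher and 0.576% lower in the mutants). At an unadjusted p of 0.05 in the same fit 7 members passed, all higher in the mutants (16.7% of the 42, against 17.9% of all tested genes, 11.9% higher and 6.01% lower). DESeq2 on the recovered whole reads called 3 members (7.14%, against 9.37% of all tested genes), and edgeR called 0, against 0.799% of all tested genes. No member was called with a pseudocount of 0.5 (1.99% of all tested genes) or 5 (2.47%), with no filter (0.381%) or one at 5 RPM (2.99%), with TMM (2.25%) or median-of-ratios scaling (2.17%), or with a replicate block (3.64%). The members' share was thus near or below the background in each of these fits.

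The log2 fold changes of the 42 members ran from -0.57 to 1.30, with a median of 0.26 beside 0.08 for all tested genes. They were above 0 in 31 members (73.8%, against 56.2% of all tested genes). In 16 members both mutants exceeded both controls (38.1%, against 30.6% of all tested genes), and in 3 both mutants lay below both controls (7.14%, against 21.1%). Few members moved far: 3 had an estimate past 2-fold, or 7.14%, against 15.0% of all tested genes. With 2 libraries a group the intervals are wide, and the 95% interval stayed within 2-fold either way for 12 members (28.6%, against 31.5% of all tested genes), so for the other 30 a 2-fold difference lies inside the interval. In bulk RNA, more ciliated cells and more of a message per cell cannot be told apart.

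**Figure D1:**
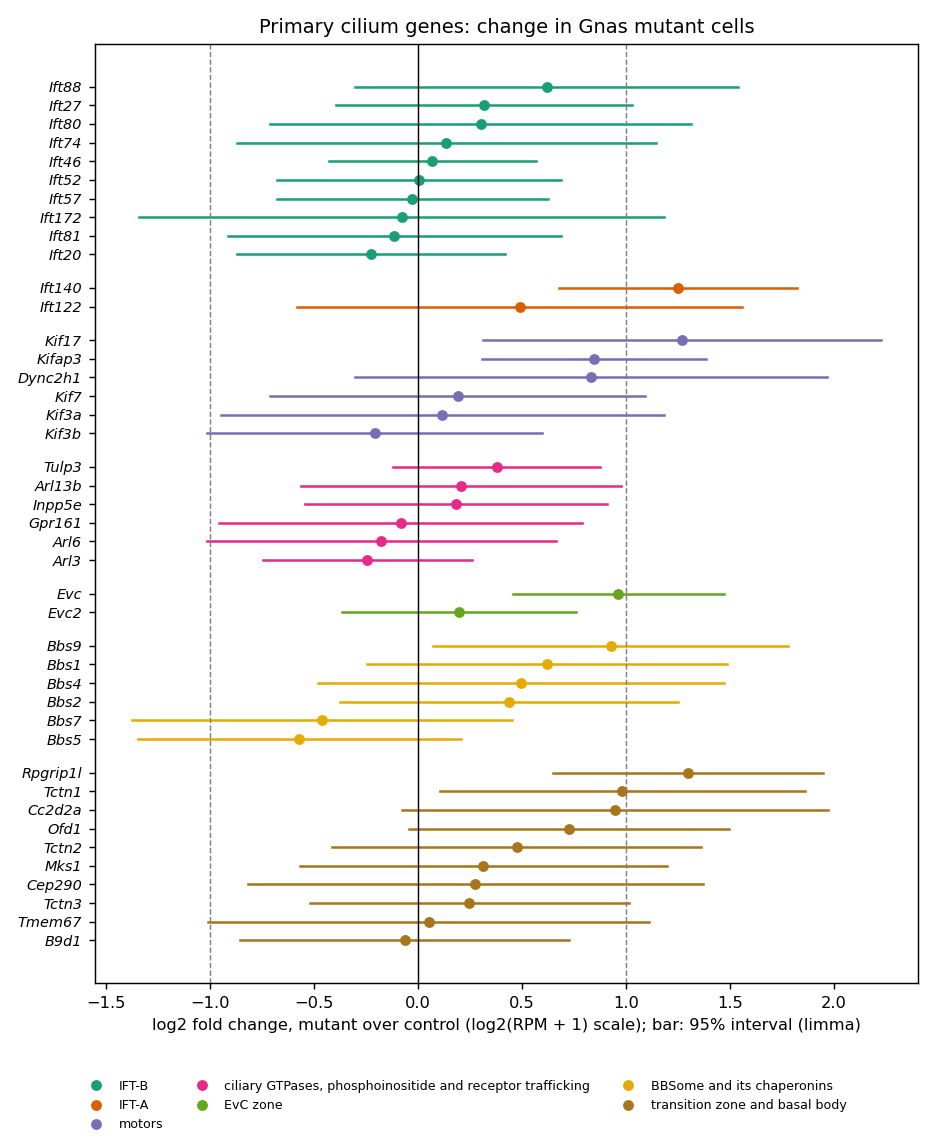
Log2 fold change of mutant over control on the log2(RPM + 1) scale for each of the 42 tested members (point), with its 95% interval from limma (bar), grouped and coloured by role. Dashed lines mark 2-fold. Rpgrip1l, Kif17 and Ift140 lie past 2-fold, Bbs5 and Bbs7 lie lowest, and none passed the adjusted threshold.

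A minority of the promoters of these genes hold letters of a ciliary motif that the member list did not use. RFX transcription factors are the best known activators of ciliary genes and bind the X-box, an inverted pair of half-sites. RefSeq promoters on GRCm38.p6 (250 bases before to 50 after the start) matched 40 members through 43 promoters. Those not matched were Ift80, Ift81, Ift122 and Tmem67. The half-site GTTGCC, read on both strands, was found in 18 of the 43 (41.9%), against 12.8% of the promoters of tested genes and 12.5% of all 32851 promoters. The paired form GTTNCCNNGGNAAC, which can contain that half-site, was found in 3 of the 43 (6.98%), against 0.521% of the promoters of tested genes and 0.451% of all promoters. The GLI letters GACCACCCA were found in 0 of the 43, against 0.230% of the promoters of tested genes and 0.253% of all promoters. The cyclic AMP response element TGACGTCA was found in 2 of the 43, those of Kif17 and Ift57 (4.65%, against 3.03% of the promoters of tested genes and 1.79% of all promoters). A match is a run of letters and not a bound site. The promoters holding a paired form are shown first, as stretches along the gene's strand with the pair in capitals, for Bbs7 (chr3:36613474-36613533, minus strand), Mks1 (chr11:87853155-87853214, plus strand) and Tctn1 (chr5:122264411-122264440, minus strand).
Bbs7: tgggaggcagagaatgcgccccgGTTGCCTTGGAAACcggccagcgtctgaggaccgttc
Mks1: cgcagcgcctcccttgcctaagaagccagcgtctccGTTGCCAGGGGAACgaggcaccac
Tctn1: gcgctaggctgtgactGTTGCCCGGGCAAC
Each pair lies near the gene's start, from base -121 to -108 for Bbs7, from -24 to -11 for Mks1 and from 37 to 50 for Tctn1, counted from 1 at the first base of the RefSeq gene and from -1 before it. These 3 genes did not share a direction: the log2 fold changes were -0.46 for Bbs7, 0.31 for Mks1 and 0.98 for Tctn1.

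Of the 4 members with the smallest p, Ift140 and Evc had a half-site match and Rpgrip1l and Kifap3 had none. The 250 bases before the start of Ift140 (chr17:25015836-25016085, plus strand) and of Evc (chr5:37336882-37337131, minus strand) follow, since both genes had groups far apart relative to their spread, with the half-site GTTGCC, here read on the other strand, in capitals.
Ift140: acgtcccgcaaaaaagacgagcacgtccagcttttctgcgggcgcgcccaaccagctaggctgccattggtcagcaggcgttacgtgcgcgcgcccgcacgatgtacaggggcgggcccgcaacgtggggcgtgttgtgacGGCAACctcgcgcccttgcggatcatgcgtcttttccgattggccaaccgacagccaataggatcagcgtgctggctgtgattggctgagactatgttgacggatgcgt
Evc: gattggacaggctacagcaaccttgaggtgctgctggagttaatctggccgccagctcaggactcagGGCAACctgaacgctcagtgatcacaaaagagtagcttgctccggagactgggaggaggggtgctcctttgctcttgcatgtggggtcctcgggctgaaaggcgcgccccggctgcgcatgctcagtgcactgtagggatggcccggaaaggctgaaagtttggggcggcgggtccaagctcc

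The IFT-A subunit Ift140 had the smallest p of the members, and did not pass. IFT-A brings cargo back to the base and carries Tulp3-bound receptors into the cilium. Ift140 (chromosome 17, 25016085 to 25099495, plus strand, GRCm38) had 50.2 and 49.8 RPM in the mutants, against 20.1 and 20.8 RPM in the controls. Both mutants lay above both controls, and libraries of a group were within 1.04-fold of each other. The ratio of means was 2.44, with a log2 fold change of 1.25 (SE 0.23, 95% interval 0.68 to 1.82, limma adjusted p = 0.0693). The call turned on the tool: the adjusted p was 0.00222 with DESeq2 and 0.0877 with edgeR. With a library left out the log2 fold change was 1.22 without control 1, 1.27 without control 2, 1.24 without mutant 1 and 1.25 without mutant 2. Ift122, its partner in the IFT-A core, had 21.0 and 25.4 RPM in the mutants, and 23.7 and 10.9 RPM in the controls. The groups overlapped, and control 2 was the low library (log2 fold change 0.49, interval -0.58 to 1.56).

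The other 4 IFT-A subunits belonged to a second list of ciliary genes. All 6 subunits had a log2 fold change above 0, with a median of 0.60. Wdr35 had 102 and 85.7 RPM in the mutants, against 48.3 and 39.6 RPM in the controls (log2 fold change 1.08, adjusted p = 0.100). Wdr19 stood at 47.7 and 36.2 RPM in the mutants, against 31.2 and 19.7 RPM in the controls (0.72, adjusted p = 0.329). Ift43 had a log2 fold change of 0.40 and Ttc21b one of 0.08. No IFT-A subunit passed the adjusted threshold.

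IFT-B is the larger complex, which carries cargo to the tip. The 10 IFT-B members had a median log2 fold change of 0.04, from -0.23 for Ift20 to 0.62 for Ift88, and none passed. The interval stayed within 2-fold for 5 of the 10. Ift88, whose loss in mice abolishes cilia, had 22.3 and 16.6 RPM in the mutants, against 15.7 and 9.42 RPM in the controls. The groups did not overlap (log2 fold change 0.62, interval -0.30 to 1.54, adjusted p = 0.440). On the log2(RPM + 1) scale, however, the difference between the groups was smaller than that between the 2 controls. Ift46 was the steadiest, with 139 and 154 RPM in the mutants and 137 and 142 RPM in the controls (0.07, interval -0.43 to 0.57). Ift52, Ift57 and Ift81 had log2 fold changes of 0.00, -0.03 and -0.11.

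Ift27, the small GTPase of the train that helps the BBSome leave the cilium, had 17.2 and 19.2 RPM in the mutants, against 13.0 and 16.0 RPM in the controls (log2 fold change 0.32, adjusted p = 0.609). Ift20, which also works at the Golgi, had 78.6 and 75.6 RPM in the mutants and 75.2 and 109 RPM in the controls, where control 2 was the high library (-0.23, adjusted p = 0.689). Ift172 had 13.0 and 18.0 RPM in the mutants and 25.9 and 10.0 RPM in the controls, so the mutants lay between the controls (-0.08). Ift74 had the widest gap between the mutants, 36.2 and 18.0 RPM, around control values of 26.1 and 20.6 RPM. Ift80 had 8.76 and 4.85 RPM in the mutants and 5.91 and 4.45 RPM in the controls. The 17 IFT-B subunits tested in both lists had a median log2 fold change of 0.03. The smallest p among them was that of Hspb11, with 48.8 and 39.4 RPM in the mutants, against 63.2 and 68.1 RPM in the controls (-0.57, interval -1.15 to 0.01, adjusted p = 0.283).

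**Figure D2:**
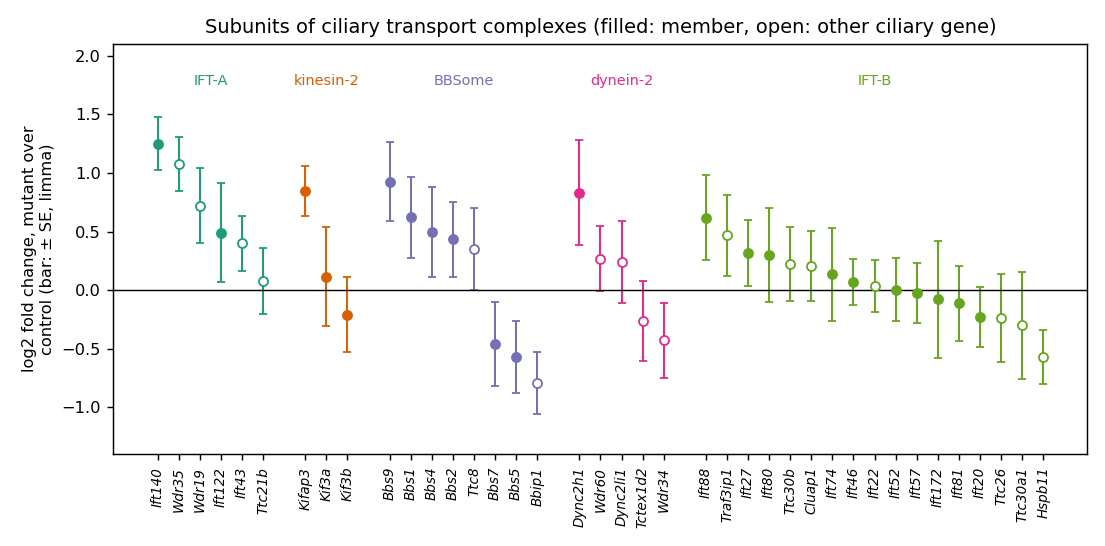
Log2 fold change of mutant over control (point, with SE from limma) for each subunit of 5 ciliary transport complexes. Filled points are members, open points belong to the other list of ciliary genes. All 6 IFT-A subunits lie above 0, the 17 IFT-B subunits lie on both sides of it, and the BBSome has 5 above and 3 below.

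The 6 motor genes had log2 fold changes from -0.21 to 1.27, and none passed. Differences between motor subunits were not tested. Kifap3 (chromosome 1, 163779583 to 163917109, plus strand), the subunit that links the kinesin-2 motors to cargo, had 85.2 and 85.1 RPM in the mutants, against 43.2 and 51.0 RPM in the controls. The groups were apart, with a ratio of means of 1.81 and a log2 fold change of 0.84 (interval 0.30 to 1.38, adjusted p = 0.136). The adjusted p was 0.207 with edgeR and 0.112 with DESeq2. For Kifap3 the log2 fold change was 0.73 without control 1, 0.96 without control 2 and 0.84 without mutant 1 or without mutant 2. Its motor partner Kif3a had 43.6 and 33.4 RPM in the mutants and 51.8 and 23.7 RPM in the controls, which overlapped (0.12, interval -0.95 to 1.18). The other motor subunit, Kif3b, had 14.7 and 16.8 RPM in the mutants and 22.4 and 14.9 RPM in the controls (-0.21, interval -1.01 to 0.60). Within a library the ratio of Kifap3 to Kif3a amplicon reads was 1.95 and 2.55 in the mutants, and 0.835 and 2.15 in the controls, so control 2 lay among the mutants. The ratio of Kifap3 to Kif3b was 5.79 and 5.07 in the mutants, against 1.93 and 3.42 in the controls, with no overlap.

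Dync2h1, the heavy chain of dynein-2, had 17.4 and 13.9 RPM in the mutants, against 12.6 and 5.41 RPM in the controls. Control 2 was lowest (log2 fold change 0.83, adjusted p = 0.403 with all libraries). With a library left out the log2 fold change ran from 0.29 without control 2 to 1.37 without control 1. Kif7, a kinesin that organises Gli and Sufu at the ciliary tip, had 4.58 and 7.14 RPM in the mutants and 4.77 and 5.04 RPM in the controls (0.19, interval -0.71 to 1.09). Kif17, an accessory kinesin, was near the floor, with 37 and 21 reads (2.12 and 1.41 RPM) in the mutants, against 0 and 4 reads (0 and 0.297 RPM) in the controls. The ratio of pooled reads was 14.3 (exact 95% counting interval 5.31 to 54.4), and the log2 fold change was 1.27 with a pseudocount of 1 (adjusted p = 0.182), 1.83 with one of 0.5 and 3.54 with edgeR. Kif17 entered the test only through its mutant values. The gate gene Tctn1, described below, reached 1 RPM in both mutants and in control 1 but not in control 2.

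A group of 6 members encodes proteins that carry Hedgehog and cyclic AMP regulators through the cilium. The messages of these 6 had log2 fold changes from -0.24 to 0.38, none passed, and 5 of the 6 intervals stayed within 2-fold. Gpr161, the receptor through which the product of Gnas raises ciliary cyclic AMP, had 31.9 and 35.9 RPM in the mutants, and 48.3 and 26.7 RPM in the controls. The mutants lay between the controls (-0.08, interval -0.96 to 0.79, adjusted p = 0.922), and the sign turned without control 1 (0.33). Tulp3, the adaptor that brings Gpr161 into the cilium, had 136 and 151 RPM in the mutants, against 112 and 108 RPM in the controls, with no overlap (0.38, interval -0.12 to 0.87, adjusted p = 0.389).

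Inpp5e, the lipid phosphatase that sets the membrane composition Tulp3 reads, had 20.5 and 19.3 RPM in the mutants and 20.2 and 15.0 RPM in the controls (log2 fold change 0.18, interval -0.54 to 0.91). Arl13b, the ciliary GTPase that retains Inpp5e, had 13.6 and 18.5 RPM in the mutants and 14.6 and 12.8 RPM in the controls (0.20, interval -0.57 to 0.97). Both overlapped between the groups. Arl3, which releases lipid-anchored cargo inside the cilium, had 113 and 127 RPM in the mutants, against 147 and 138 RPM in the controls. Both mutants were lower, by less than the interval resolves (-0.24, interval -0.75 to 0.26). Arl6, the GTPase that recruits the BBSome to membranes, had 4.70 and 6.20 RPM in the mutants and 6.72 and 5.79 RPM in the controls (-0.18).

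Evc and Evc2 encode partners in a membrane complex just above the transition zone that passes the Smo signal on to Gli factors, and in chondrocytes and bone they are known for the skeletal ciliopathy that bears their name. Evc (chromosome 5, 37289098 to 37336894, minus strand) had 97.1 and 95.3 RPM in the mutants, against 50.6 and 47.2 RPM in the controls. The groups were far apart relative to their spread, with a ratio of means of 1.97 and a log2 fold change of 0.96 (SE 0.20, interval 0.46 to 1.47, adjusted p = 0.0946). Its adjusted p was 0.0134 with DESeq2 and 0.124 with edgeR. Evc had a log2 fold change of 1.01 without control 1, 0.92 without control 2, 0.95 without mutant 1 and 0.98 without mutant 2. Evc2 (chromosome 5, 37338499 to 37425055, plus strand) starts 1605 bases from Evc on the other strand. Its values overlapped between the groups, with 87.8 and 78.7 RPM in the mutants and 80.4 and 65.3 RPM in the controls (0.20, interval -0.36 to 0.76, adjusted p = 0.693). The ratio of Evc to Evc2 amplicon reads within a library was 1.11 and 1.21 in the mutants, against 0.629 and 0.724 in the controls.

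**Figure D3:**
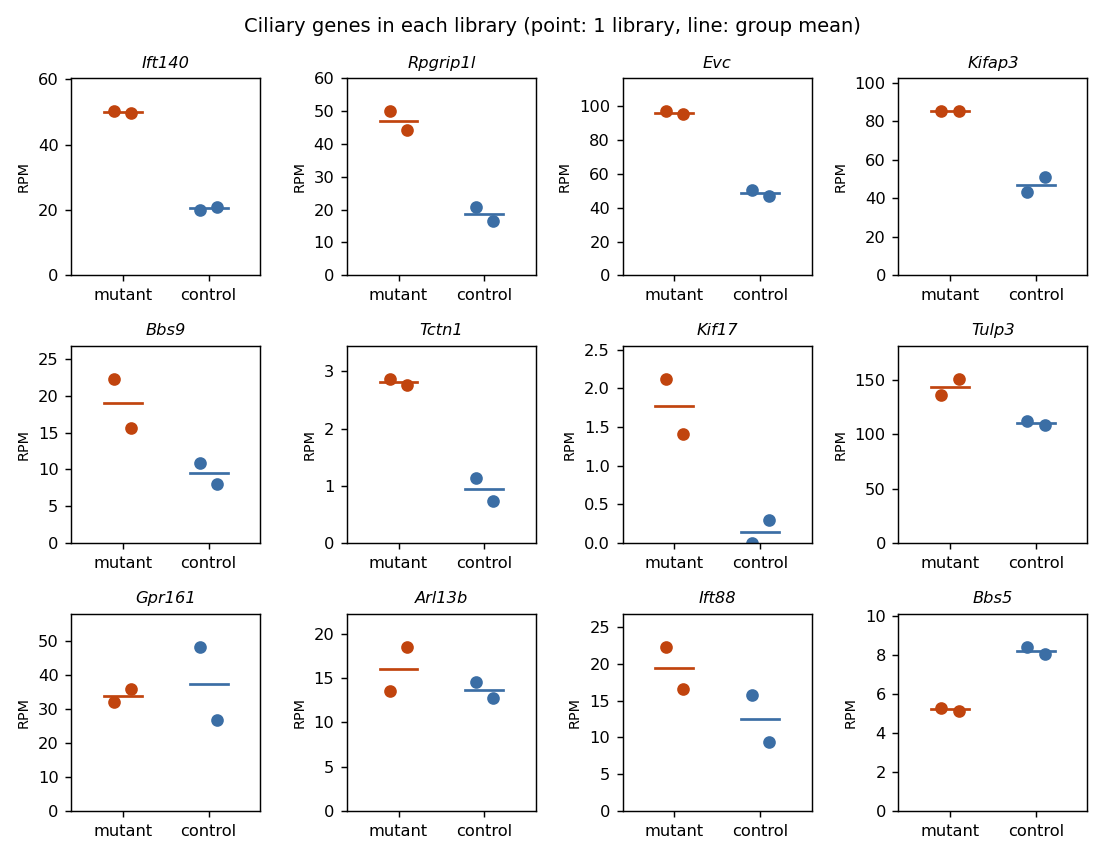
RPM of 12 members in each library (point, 2 mutant libraries left and 2 control libraries right) with the group mean (line), on linear axes from 0. In the first 8 panels, from Ift140 to Tulp3, and in Ift88 both mutants lie above both controls, in Bbs5 both lie below, and Gpr161 and Arl13b overlap.

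The BBSome, an 8-subunit coat that carries receptors such as Gpr161 out of the cilium, had members on both sides. Bbs9 (chromosome 9, 22475715 to 22888280, plus strand), a core subunit, had 22.3 and 15.7 RPM in the mutants, against 10.9 and 8.01 RPM in the controls. The groups did not overlap, with a ratio of means of 2.00 and a log2 fold change of 0.93 (interval 0.07 to 1.78, adjusted p = 0.250). With a library left out the log2 fold change of Bbs9 ran from 0.69 without mutant 1 to 1.17 without mutant 2. Bbs1, the subunit that Arl6 binds, had 6.42 and 4.85 RPM in the mutants, against 3.63 and 2.97 RPM in the controls (0.62, adjusted p = 0.413). Bbs2 had 10.0 and 8.96 RPM in the mutants, against 7.75 and 5.86 RPM in the controls (0.44). Bbs4, which links the coat to centriolar satellites, overlapped, with 17.4 and 12.1 RPM in the mutants and 13.1 and 7.64 RPM in the controls (0.50, adjusted p = 0.556).

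Bbs5, the subunit that binds phosphoinositides, was lower in both mutants, with 5.27 and 5.12 RPM against 8.40 and 8.01 RPM in the controls (log2 fold change -0.57, interval -1.35 to 0.21, adjusted p = 0.400). Bbs7 had 1.89 and 2.43 RPM in the mutants, against 4.01 and 2.74 RPM in the controls (-0.46, adjusted p = 0.560). These rest on 76 to 155 reads a library for Bbs5 and 33 to 74 for Bbs7. With the other subunits Ttc8 (0.35) and Bbip1 (-0.79, adjusted p = 0.227), 5 of 8 BBSome subunits were above 0 and 3 below. The chaperonin genes Bbs10 and Bbs12, which help to assemble the coat, were too low to be tested. Bbs10 had 19 and 7 reads in the mutants, and 13 and 8 reads in the controls, and Bbs12 had 2 and 1 reads in the mutants, and 0 and 2 reads in the controls.

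On the log2(RPM + 1) scale a gene of the transition zone gate had the largest log2 fold change of the 42, while by the ratio of means the low-count genes Kif17 and Tctn1 lay above it. Rpgrip1l (chromosome 8, 91217030 to 91313262, minus strand), a scaffold at the base of the gate, had 873 and 656 reads in the mutants, against 384 and 222 reads in the controls. It averaged 47.1 ± 4.11 RPM in the mutants and 18.6 ± 3.07 RPM in the controls (SD, n = 2 each). The groups were apart, with a ratio of means of 2.53 and a log2 fold change of 1.30 (SE 0.26, interval 0.65 to 1.95, adjusted p = 0.0837). Its adjusted p was 0.00214 with DESeq2 and 0.0894 with edgeR. Rpgrip1l had a log2 fold change of 1.46 without control 1, 1.14 without control 2, 1.21 without mutant 1 and 1.39 without mutant 2. Of the 10 members of this group 9 had a log2 fold change above 0, with a median of 0.39, and none passed.

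The other genes of the gate and basal body did not pass either. Tctn1, a tectonic of the gate, had 50 and 41 reads (2.86 and 2.76 RPM) in the mutants, against 21 and 10 reads (1.14 and 0.742 RPM) in the controls. Its ratio of means was 2.99, and its log2 fold change was 0.98 with a pseudocount of 1 (interval 0.10 to 1.86, adjusted p = 0.239) and 1.22 with one of 0.5. Some exon bases of Tctn1 are shared with Hvcn1 on the other strand, and where its amplicon lies is not known here. Cc2d2a had 15.7 and 12.8 RPM in the mutants, against 9.65 and 4.82 RPM in the controls (0.95, adjusted p = 0.310). With a library left out the log2 fold change of Cc2d2a ran from 0.51 without control 2 to 1.38 without control 1. Ofd1, a centriole protein of the basal body on the X chromosome, had 15.3 and 16.6 RPM in the mutants, against 10.7 and 8.01 RPM in the controls (0.73, adjusted p = 0.301). Both Ofd1 and Xist were higher in both mutants than in both controls, and the part of sex in the Ofd1 values was not tested.

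Tctn2 had 8.36 and 10.8 RPM in the mutants, against 7.97 and 5.41 RPM in the controls (log2 fold change 0.47). Mks1, a B9 domain protein of the gate, had 14.1 and 13.5 RPM in the mutants and 14.1 and 8.46 RPM in the controls (0.31), and Tctn3 had 18.8 and 20.7 RPM in the mutants and 19.8 and 13.7 RPM in the controls (0.25). In both genes control 1 lay among the mutants and control 2 below them. B9d1, a binding partner of Mks1, had 8.82 and 7.00 RPM in the mutants and 8.02 and 8.53 RPM in the controls (-0.06). Tmem67, a membrane receptor of the gate, had 5.44 and 8.55 RPM in the mutants and 4.88 and 8.75 RPM in the controls (0.05). Cep290, which bridges microtubules and membrane, had 3.55 and 2.69 RPM in the mutants and 1.52 and 3.56 RPM in the controls (0.28, interval -0.82 to 1.37).

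The control libraries differed from each other more than the mutant libraries did, and this spread limits every comparison above. In the controls 7 of 42 members were over 2-fold apart (16.7%, against 24.0% of all tested genes), and in the mutants only Ift74 was (2.38%, against 7.02%). Control 2 was below control 1 in 31 of 42 members (73.8%, against 57.8% of all tested genes). The median difference was -0.31 on the log2(RPM + 1) scale, beside -0.12 for all tested genes. Mutant 2 was below mutant 1 in 25 members (59.5%, against 50.6% of all tested genes), with a median of -0.04, beside -0.0040. Ift172, Kif3a, Dync2h1, Ift122 and Cc2d2a lay over 2-fold lower in control 2, and Cep290 over 2-fold higher. Kif17 was the other one, at 0 in control 1. Ccna2, a cell cycle gene, stood at 8.24 RPM in control 1 and 70.2 RPM in control 2, between which both mutants lay at 21.8 and 35.8 RPM.

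**Figure D4:**
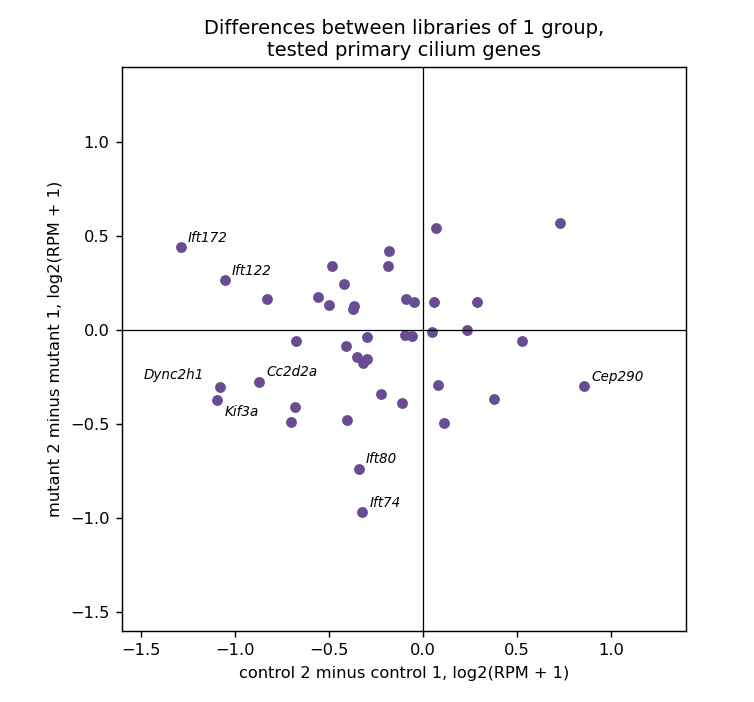
Difference between the libraries of a group on the log2(RPM + 1) scale for each tested member (point): control 2 minus control 1 on the horizontal axis and mutant 2 minus mutant 1 on the vertical axis. The points spread further along the control axis, and 31 of 42 lie left of 0.

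The members' median log2 fold change followed the control it was set against, at 0.44 without control 1 and 0.12 without control 2. Without control 1, 8 members were called higher (Bbs9, Cc2d2a, Dync2h1, Evc, Ift122, Ift140, Kifap3 and Rpgrip1l), which is 19.0% of the 42 against 20.7% of all tested genes. Without control 2, 4 were called higher (Evc, Ift140, Kifap3 and Rpgrip1l), which is 9.52% against 16.0%. Evc, Ift140, Kifap3 and Rpgrip1l were thus the members called whichever control was left out. In each such fit the lone control is assumed to vary like the other group.

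Few further ciliary genes passed. Of 48 tested genes in the second ciliary list, 1 rose, 0 fell and 47 did not pass, where 2.30% of all tested genes were called. Their median log2 fold change was 0.25, beside 0.08 for all tested genes. The one that rose was Mchr1, a receptor for melanin-concentrating hormone that localises to cilia in neurons. Mchr1 had 7.56 and 6.53 RPM in the mutants, against 0.108 and 0.445 RPM in the controls (log2 fold change 2.67, limma adjusted p = 0.0379). This gene entered the test only through its mutant values. It was not called by edgeR, nor without mutant 1 or without mutant 2, where 0 genes of any kind passed. Of the rest, the smallest p after Wdr35 belonged to Bbip1 and Tmem237, a membrane protein of the gate (0.70, adjusted p = 0.244). Of 16 tested basal body genes and ciliogenesis regulators 0 passed in limma or edgeR. One of them, Cdk20, passed in DESeq2 or at an unadjusted p of 0.05 in limma. The shares of all tested genes were 0.799% in edgeR, 9.37% in DESeq2 and 17.9% at the unadjusted p in limma. Cdk20, a kinase that acts in cilium assembly, had 13.3 and 16.8 RPM in the mutants, against 41.5 and 24.2 RPM in the controls (-1.03, adjusted p = 0.228). Rfx3, a regulator of ciliary genes, had 4.58 and 5.73 RPM in the mutants and 4.28 and 6.97 RPM in the controls (-0.08).

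Among genes that take the cilium apart or mark the cell cycle, 0 of 12 tested passed in limma, edgeR or DESeq2, and 1, Kif2a, had an unadjusted p under 0.05 in limma (8.33%). The shares of all tested genes were 2.30% in limma, 0.799% in edgeR, 9.37% in DESeq2 and 17.9% at the unadjusted p, so a count of 0 or 1 among 12 genes is near the background. Kif2a, a kinesin that shortens microtubules, had 50.8 and 45.0 RPM in the mutants, against 76.8 and 77.2 RPM in the controls (log2 fold change -0.68, adjusted p = 0.193). Hdac6, which deacetylates ciliary tubulin, had 13.9 and 15.8 RPM in the mutants, against 8.56 and 8.60 RPM in the controls (0.72, adjusted p = 0.284). Of the 6 protein kinase A subunits 0 passed in limma or edgeR, and 1, the regulatory subunit Prkar1b, passed in DESeq2 or at an unadjusted p of 0.05 in limma. Prkar1b had 27.1 and 27.7 RPM in the mutants, against 47.5 and 68.3 RPM in the controls (-1.03, adjusted p = 0.146).

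Of 15 tested Hedgehog pathway genes, 5 rose, 0 fell and 10 did not pass, where 2.30% of all tested genes were called (1.73% higher). The median log2 fold change of the 15 was 0.45, beside 0.08 for all tested genes. Sufu (0.45), Boc (0.28), Spop (-0.02), Gli3 (-0.29), Disp1 (-0.40) and Cdon (-0.69) were among those that did not pass. Gli1 is a transcription factor and itself a target. It stood at 159 and 183 RPM in the mutants, against 0.108 and 0.074 RPM in the controls (log2 fold change 7.30, limma adjusted p = 0.00472). Gli1 and Hhip, another of the 5, entered the test only through their mutant values. The receptor and target Ptch1 had 304 and 389 RPM in the mutants, against 12.4 and 11.6 RPM in the controls (4.73). None of the 5 was called without mutant 1 or without mutant 2, and neither was any other tested gene. Smo, the transducer that enters the cilium, had 287 and 301 RPM in the mutants, against 181 and 124 RPM in the controls, and did not pass (0.97, adjusted p = 0.149). The 42 ciliary members lay between -0.57 and 1.30 in the same fit. The difference between the lists was not tested.

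**Figure D5:**
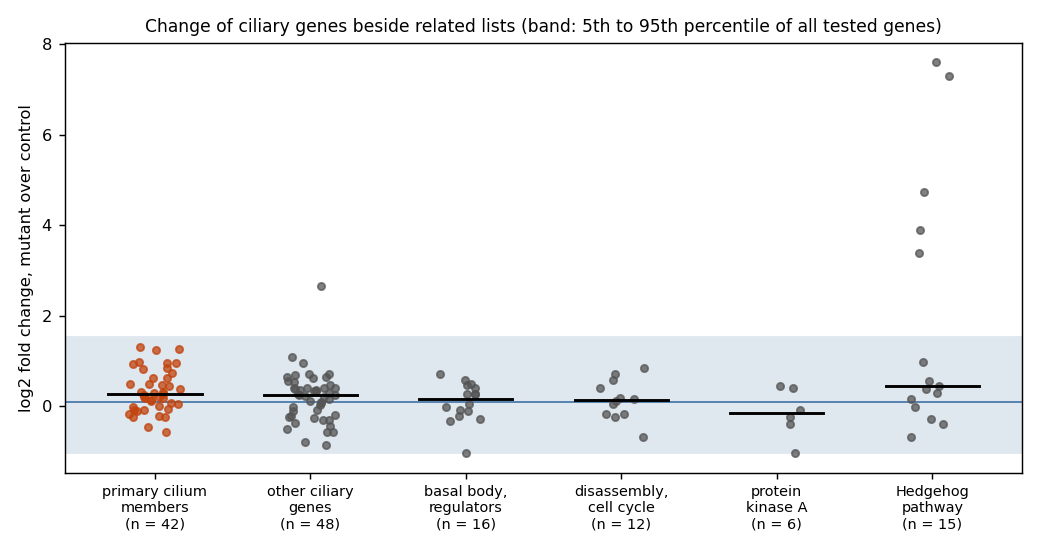
Log2 fold change of mutant over control for each tested gene (point) of the members and of 5 related lists, with the list's median (line). The band spans the 5th to 95th percentile of all tested genes (-1.04 to 1.52) and the thin line their median (0.08). All 42 members lie inside the band, while 5 Hedgehog pathway genes and Mchr1 lie above it.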

How the data were processed

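The deposited table holds RPM for 1 amplicon per gene (Ion AmpliSeq panel, per the labels' protocols), scaled by the authors to 1000000 reads per library. No source used here names the aligner, counter or build. Symbols came from amplicon names. Dividing by the RPM step of 1 read gave whole reads for 100% of non-zero values (within 0.01 read beyond rounding). A value of 0 allows up to 3 reads, 0.163 to 0.222 RPM by library. Intervals and floors in reads cover counting error only, because copies of 1 molecule were not marked. Amplicons differ in efficiency, so RPM was compared between libraries and not between genes.

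The 11638 genes that reached 1 RPM in 2 or more libraries were tested with limma 3.58.1 in R 4.3.3 (lmFit, eBayes with trend) on log2(RPM + 1). Tests were two-sided and adjusted by Benjamini-Hochberg, with a threshold of 0.05. This scale understates changes of low genes. edgeR 4.0.16 and DESeq2 1.42.0 on the recovered reads were alternatives, beside other pseudocounts, filters and scalings, a replicate block and each library left out. No label ties a library to its own mouse or culture. The p-values therefore measure only how these libraries spread, which may be technical. The members, lists and tests were chosen with earlier results of these data known. Members were named by an unadjusted p under 0.05, by role, or as the extremes of a role group, and the other members are given by their values. Of the other lists those of smallest p were named, with Gli1, Ptch1, Smo and Rfx3. Stromal and pericyte markers, 6 Hedgehog genes that did not pass, Ccna2 and Mcm2 were added after their values were seen. Motifs were chosen after the values were seen. Gene positions are from GENCODE M21 (GRCm38) and are not those of amplicons. Figures used Python 3.11.15 and matplotlib 3.10.9.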

Additional observations from a re-analysis of the deposited data

How the results depend on the processing

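With pseudocounts of 0.5 or 5, a filter at 5 RPM, no filter, TMM or median-of-ratios scaling, the replicate block or edgeR, 0 ciliary members were called, and DESeq2 called 3. Leaving out a library gave 0 to 8 called members and 0 to 2411 called genes, against 268 with all libraries. With no filter 74 genes were called, with edgeR 93 and with DESeq2 1091. The replicate block gave 424. Replicate numbers share only a label here (correlation of deviations 0.164 across 11638 genes), and the block changed no call among the members. Leaving out a mutant gave 0 calls over all genes, and the causes of these shifts were not tested. The members' median log2 fold change of 0.26 ran from 0.12 to 0.44 over the libraries left out. Of the other ciliary genes 1 of 48 tested was called with all libraries, against 2.30% of all tested genes. With no filter (0.381% of all tested genes) or edgeR (0.799%) 0 were called, and with DESeq2 (9.37%) 2. Of 16 tested ciliogenesis regulators 0 were called with all libraries in limma and 1 with DESeq2, beside the same shares of all tested genes. Of Hedgehog pathway genes 0 to 7 were called with a library left out, and of cilium disassembly and cell cycle genes 0 to 4. Members near 0 changed sign when a library was left out, with log2 fold changes from -0.50 to 0.33 for Gpr161, -0.0062 to 0.42 for Arl13b, -0.023 to 0.39 for Inpp5e, -0.081 to 0.46 for Kif7, -0.43 to 0.66 for Kif3a, -0.15 to 0.70 for Cep290, -0.49 to 0.035 for Ift20, -0.039 to 1.02 for Ift122, -0.49 to 0.071 for Kif3b and -0.21 to 0.083 for B9d1. Kif3a was at -0.029 with edgeR and -0.039 with DESeq2. Depth limits Bbs10, Bbs12, Kif17, Tctn1 and Bbs7, and 14 of 168 values of tested members rest on under 50 reads.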

Other observations

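Genes of motile cilia, which primary cilia lack, were nearly silent. The 19 measured genes of dynein arms, radial spokes and multiciliated cells summed to 12.3 and 10.4 RPM in the mutants, and to 7.21 and 7.79 RPM in the controls, and 2 of them could be tested. Ccdc39, a ruler protein of motile axonemes, had 6.42 and 5.93 RPM in the mutants, against 3.90 and 1.26 RPM in the controls (log2 fold change 1.11, limma adjusted p = 0.310). Rsph9, of the radial spoke head, had 2.35 and 2.36 RPM in the mutants and 1.95 and 3.04 RPM in the controls (-0.04, adjusted p = 0.964). Foxj1, the master regulator of motile cilia, had 0.115 and 0.067 RPM in the mutants and 0.975 and 0 RPM in the controls. Adcy3, an adenylyl cyclase that localises to primary cilia, had 38.9 and 54.4 RPM in the mutants, against 71.6 and 60.6 RPM in the controls (-0.51, adjusted p = 0.387).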
